A study of Caenorhabditis elegans with 4 samples.

Results

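The genes described here are the 6 vitellogenin genes of Caenorhabditis elegans, vit-1 to vit-6, and rme-2, the gene of the yolk receptor. They were chosen by name, through their WormBase identifiers, and all 7 were found among the 20535 genes of the deposited files. Vitellogenins are large lipid-carrying proteins related to the apolipoprotein B of vertebrates. In C. elegans the intestine of the adult hermaphrodite makes them and secretes them into the body cavity, from where growing oocytes take them up as yolk. RME-2, a receptor of the LDL receptor family on the oocyte surface, binds yolk for endocytosis. Vitellogenin genes come on at the start of adulthood and are among the most abundant messages of the adult hermaphrodite.

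RNA of whole animals was sequenced from 2 strains of young adults with 2 libraries each. The mutant strain VL1080 carries the allele ww4 of mccc-1, on chromosome IV, and the integrated reporter wwIs24, a fluorescent reporter of the acdh-1 promoter that the labels write together with unc-119(ed3). The control strain VL749 carries wwIs24 alone, so the reporter is common to both strains, and each strain is a single line. Per the labels, larvae of both strains were held in first-stage (L1) arrest for 20 h, then fed the bacterium Comamonas aquatica DA1877 on plates. At least 200 animals were pooled for a library at 70 h after hatching, at 20 °C. The libraries are called biological replicates without word on separate cultures, so p-values reflect only how these libraries vary, which may be technical.

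Levels are given in FPKM, fragments scaled by transcript length and library depth, so that levels of different genes are compared per length. The deposited FPKM summed to 741399 and 770579 in the mutant libraries and to 786436 and 780720 in the control libraries. mccc-1 itself was at 100.4 and 100.3 FPKM in the mutant libraries, against 104.2 and 105.3 FPKM in the control libraries, which is no check of the genotype, since the lesion of ww4 is not described in the labels. The spacing of low values put 1 fragment at 0.0851 to 0.088 FPKM for a transcript of about 1 kb, or 11.4 to 11.8 fragments per FPKM and kilobase. By that spacing the vitellogenin genes rested on roughly 71700 to 343300 fragments each per library and rme-2 on roughly 4020 to 6060, which leaves a counting error of at most 0.373% and 1.58%. These fragment numbers are estimates and such errors cover counting only. Of 2 adult cuticle collagen genes, col-19 was at 2872 and 3193 FPKM in the mutant libraries and at 3418 and 2789 FPKM in the control libraries. col-7, which stood far lower, fell to 2.89 and 2.46 FPKM in the mutant libraries, against 24.6 and 16.2 FPKM in the control libraries (log2 fold change -2.51 with SE 0.26, limma adjusted p = 0.00723, or 0.0695 and 0.106 with a minimum of 0.1 FPKM or none). Its part in the yolk gene values was not tested. Of 8 moulting genes only nas-37 was above 4 FPKM in any library. Sperm genes were lower in the mutant: the major sperm protein genes summed to 2819 and 4312 FPKM in the mutant libraries, against 11034 and 10562 FPKM in the control libraries.

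Yolk gene expression stood at nearly the same total in both strains. The 6 vitellogenin genes together made up 2.57% and 2.63% of all FPKM in the mutant libraries and 2.58% and 2.60% in the control libraries. Neither the vitellogenin genes nor rme-2 passed the test between strains. vit-4 and vit-1 were lower in both mutant libraries than in both control libraries, at 0.830 and 0.847 times their control means. rme-2 was higher in both mutant libraries, at 1.29 times its control mean, and the libraries of the strains overlapped for vit-2, vit-3, vit-5 and vit-6.

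The genes lie in 2 places of the genome by the WBcel235 annotation. vit-1 to vit-5 are on the X chromosome. vit-5 (WBGene00006929) spans positions 3403471 to 3408603 on the forward strand, vit-4 (WBGene00006928) 3558769 to 3563965 and vit-3 (WBGene00006927) 3567355 to 3572549, both on the reverse strand, with 3389 bases and no annotated gene between vit-4 and vit-3. vit-2 (WBGene00006926) spans 5101042 to 5106169 and vit-1 (WBGene00006925) 7727889 to 7733168, both on the forward strand. vit-6 (WBGene00006930; 8261157 to 8266459) and rme-2 (WBGene00004374; 5470026 to 5473174) are on the forward strand of chromosome IV, the chromosome of mccc-1. All 7 are annotated as protein-coding.

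The annotated proteins fall into classes of length. vit-3, vit-4 and vit-5 each encode 1603 residues, vit-2 encodes 1613 and vit-1 1616, and vit-6, whose product is known to be cut into smaller yolk polypeptides, encodes 1650. RME-2 is shorter, with 925 residues in its longest transcript. vit-3, vit-4 and vit-5 are known to be close copies of each other, as are vit-1 and vit-2, and the authors' quantification shares fragments among similar genes by a model. Single values within those groups are therefore uncertain, and the sums of vit-3 to vit-5 and of vit-1 and vit-2 are given beside them. On the strand opposite vit-2 lies C42D8.9, which was at 0.12 to 0.36 FPKM, and short non-coding genes lie opposite vit-3 and vit-4 and were not analysed here. The authors' build and annotation are not known here. The files list more transcripts than the annotation for vit-2 (4 against 1), vit-6 (3 against 2) and rme-2 (4 against 2).

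vit-6 was the highest of the yolk genes, at 5560.2 and 5762 FPKM in the mutant libraries and at 5753 and 5249.7 FPKM in the control libraries. It ranked first of all genes in 3 libraries and second in control replicate 2. vit-2 stood at 4808 and 5218 FPKM in the mutant libraries and at 4981 and 4783 FPKM in the control, and ranked 2 or 3. For both genes the libraries of the strains overlapped, and mutant replicate 2 and control replicate 1 held the higher values of their strains.

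vit-5 was at 3369 and 3451 FPKM in the mutant libraries and at 3444 and 3668 FPKM in the control libraries. vit-3 was at 2229 and 2455 FPKM in the mutant libraries and at 2399 and 2588 FPKM in the control libraries. In these genes control replicate 2 was the highest library and mutant replicate 1 the lowest, and the strains overlapped. vit-4, the neighbour of vit-3, was at 1848 and 1900.2 FPKM in the mutant libraries and at 2187 and 2327 FPKM in the control, and both mutant libraries lay below both control libraries.

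vit-1 was the lowest of the 6, at 1236 and 1476 FPKM in the mutant libraries and at 1557 and 1644 FPKM in the control libraries, again with no overlap. It still ranked between 76 and 99 among all genes. rme-2, an oocyte gene, was at 185.4 and 168.4 FPKM in the mutant libraries and at 155.1 and 119.9 FPKM in the control libraries. Its mutant libraries lay above its control libraries, its rank was 591 and 668 in the mutant and 731 and 957 in the control, and control replicate 2 held the lowest value.

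**Figure D1:**
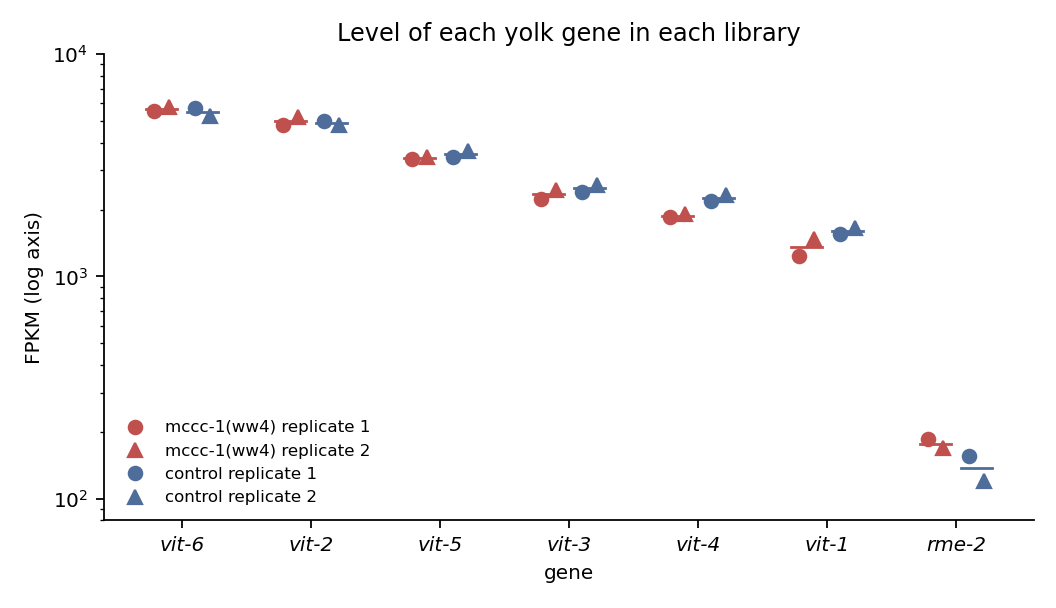
FPKM (log axis) of each yolk gene in the 2 mccc-1(ww4) libraries (red, left) and the 2 control libraries (blue, right), with circles for replicate 1, triangles for replicate 2 and a line at each group's mean. The order of the genes is shared by all libraries, and vit-4, vit-1 and rme-2 are the genes whose groups do not overlap.

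The order of levels, vit-6, vit-2, vit-5, vit-3, vit-4, vit-1 and then rme-2, was the same in all 4 libraries. Within each strain every neighbouring pair was apart. Over all 4 libraries vit-3 and vit-4 overlapped, because the control level of vit-4 reached the mutant level of vit-3, and the other neighbours did not. The steps were small between vit-6 and vit-2, where the ratio was 1.10 to 1.16, and between vit-3 and vit-4, where it was 1.10 to 1.29. The step from vit-1 to rme-2 was the widest, at 6.67 to 13.7.

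Summed, the vitellogenin genes reached 19051 and 20261 FPKM in the mutant libraries and 20321 and 20259.9 FPKM in the control libraries. The mutant mean was 19656 ± 856 FPKM and the control mean 20290.5 ± 43.2 FPKM (SD, n = 2 each), a ratio of 0.969. Over the alternatives that ratio ran from 0.939 without mutant replicate 2 to 1.02 after quantile normalization, and mutant replicate 2 lay within 2 FPKM of control replicate 2. As a share of all FPKM the sum was 2.60% ± 0.0422 in the mutant and 2.59% ± 0.00784 in the control (SD, n = 2 each). Because these transcripts are long, they held a larger share of the sequenced fragments, estimated from FPKM and annotated transcript length at 9.46% and 10.1% in the mutant libraries and 10.1% and 10.1% in the control libraries. vit-6 alone took an estimated 2.81% and 2.91% of fragments in the mutant libraries and 2.91% and 2.65% in the control libraries.

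**Figure D2:**
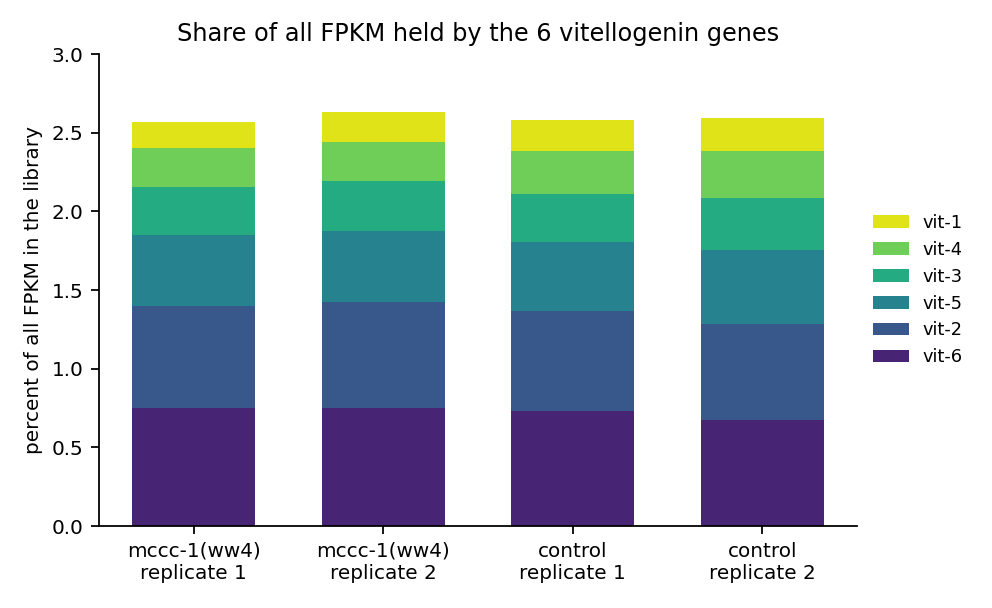
Percent of all FPKM in a library held by each of the 6 vitellogenin genes, stacked, for the 2 mccc-1(ww4) libraries and the 2 control libraries. The stacks end at 2.57%, 2.63%, 2.58% and 2.60%.

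By class, vit-3, vit-4 and vit-5 summed to 7447 and 7806 FPKM in the mutant libraries, against 8030 and 8583 FPKM in the control libraries, with means of 7626 ± 254 and 8307 ± 391 FPKM (SD, n = 2 each), a ratio of 0.918 and no overlap. That ratio was 1.02 after quantile normalization, so its direction turned with that setting. vit-1 and vit-2 summed to 6044 and 6694 FPKM in the mutant libraries and to 6538 and 6427 FPKM in the control libraries, a ratio of 0.982 (1.02 with the same FPKM total in each library), and overlapped. These sums are given without a test. With 2 libraries against 2, an exact permutation test cannot go below p = 0.333 (two-sided).

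Shares within the vitellogenin sum did not overlap between strains for 4 of the 6 genes. By level, 52.1% of all tested genes and 33.8% of those averaging at least 1000 FPKM did not overlap. No such background was computed for shares. vit-4 made up 9.70% and 9.38% of the sum in the mutant libraries, against 10.8% and 11.5% in the control libraries. vit-1 made up 6.49% and 7.28% in the mutant libraries, against 7.66% and 8.11% in the control libraries. vit-2 made up 25.2% and 25.8% in the mutant libraries, against 24.5% and 23.6% in the control libraries, and vit-6 made up 29.2% and 28.4% in the mutant libraries, against 28.3% and 25.9% in the control libraries. Shares of a sum are tied to each other, so lower shares of vit-4 and vit-1 raise the others, and the levels of vit-2 and vit-6 themselves overlapped between the strains. The shares of vit-3 and vit-5 overlapped between strains.

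Ratios between genes of a library do not depend on a factor that scales the whole library. vit-4 stood at 0.829 and 0.774 times vit-3 in the mutant libraries, against 0.912 and 0.899 times in the control libraries. vit-1 stood at 0.257 and 0.283 times vit-2 in the mutant libraries, against 0.313 and 0.344 times in the control libraries. Neither pair of ratios overlapped. Both are ratios between close copies, so they also depend on how shared fragments were divided, which was not tested. The ratio of vit-3 to vit-5 was 0.662 and 0.711 in the mutant libraries and 0.697 and 0.706 in the control libraries. That of vit-2 to vit-6, genes of the X chromosome and of chromosome IV, was 0.865 and 0.906 in the mutant libraries and 0.866 and 0.911 in the control libraries. These 2 ratios overlapped between the strains.

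**Figure D3:**
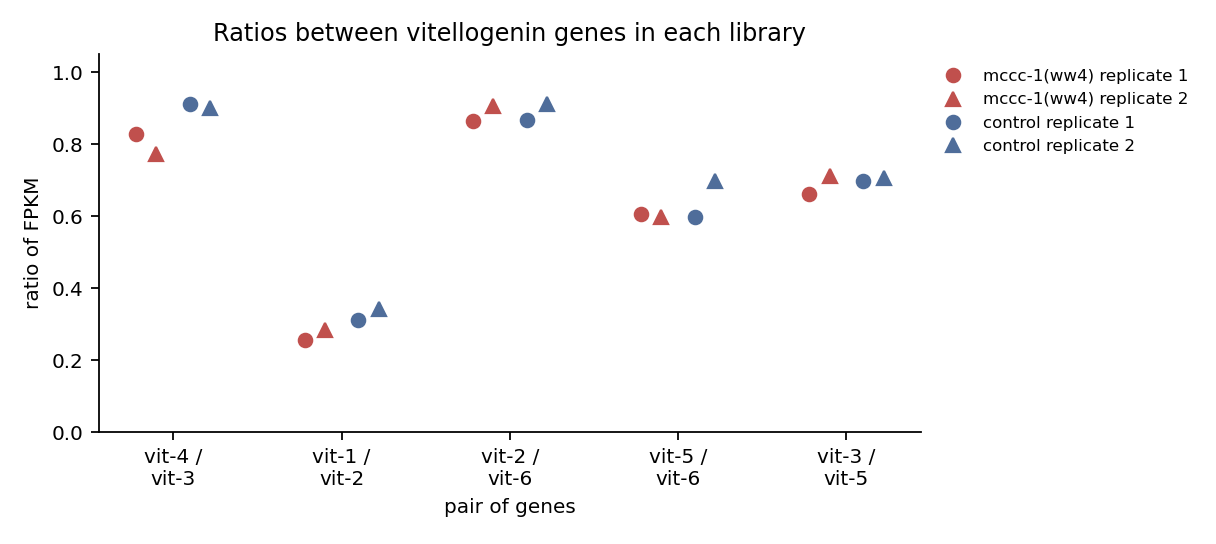
Ratio of FPKM between pairs of vitellogenin genes in the mccc-1(ww4) libraries (red, left) and the control libraries (blue, right), with circles for replicate 1 and triangles for replicate 2. vit-4 over vit-3 and vit-1 over vit-2 are below the control in both mutant libraries, and the other pairs overlap.

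In the test across all genes none of the 7 yolk genes passed (limma-trend on log2(FPKM + 1), mutant minus control, Benjamini-Hochberg adjusted p under 0.05), and none had an unadjusted p under 0.05. Of the 13091 tested genes 8.36% passed, 1.06% as higher and 7.30% as lower in the mutant, and 21.6% had an unadjusted p under 0.05 (8.16% of all tested genes as higher). These were 1095 genes with a minimum of 1 FPKM in 2 libraries, and 4 genes with a minimum of 0.1 FPKM or none. The strains' libraries were apart for 3 of the 7 yolk genes, against 52.1% of all tested genes. The closest comparison by level is with the 145 genes that averaged at least 1000 FPKM, a set that holds the vitellogenin genes. Of these 0.0% passed limma, 4 had an unadjusted p under 0.05, and 33.8% did not overlap, against 2 of the 6 vitellogenin genes. The median log2 fold change was -0.08 over the vitellogenin genes, -0.15 over those 145 genes, of which 120 had a negative value, and 0.05 over all tested genes.

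For vit-4 the means were 1874 ± 36.6 FPKM in the mutant and 2257 ± 99.2 FPKM in the control (SD, n = 2 each), a ratio of 0.830, with a log2 fold change of -0.27 (SE 0.17, limma adjusted p = 0.45) and a 95% interval of 0.622 to 1.11 on the fold scale. For vit-1 they were 1356 ± 170 FPKM in the mutant and 1600 ± 61.5 FPKM in the control, a ratio of 0.847, with a log2 fold change of -0.24 (SE 0.17, limma adjusted p = 0.494) and an interval of 0.632 to 1.13. The 4 other vitellogenin genes had log2 fold changes of 0.04 for vit-6 and vit-2, -0.06 for vit-5 and -0.09 for vit-3, with limma adjusted p of 0.837 to 0.948. The interval was 0.705 to 1.51 for vit-6, 0.711 to 1.48 for vit-2, 0.689 to 1.34 for vit-5 and 0.69 to 1.28 for vit-3. These intervals are not adjusted for the number of genes tested and are not limits of detection. Nor do these values show that the levels of vit-2 or vit-6 were equal between the strains.

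The standard errors drew more on other genes than on the replicates (4.65 prior against 2 residual degrees of freedom). The spread of log2 values between replicates was 0.0486 to 0.134 (SD) for the vitellogenin genes, while limma, which draws each gene toward genes of similar level, gave them standard errors of 0.17 to 0.23. vit-1 and vit-4 kept negative log2 fold changes in all 14 alternatives tried, at -0.37 to -0.11 and -0.31 to -0.16, and passed in none. vit-2, vit-3, vit-5 and vit-6 each changed sign in at least 1 alternative.

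**Figure D4:**
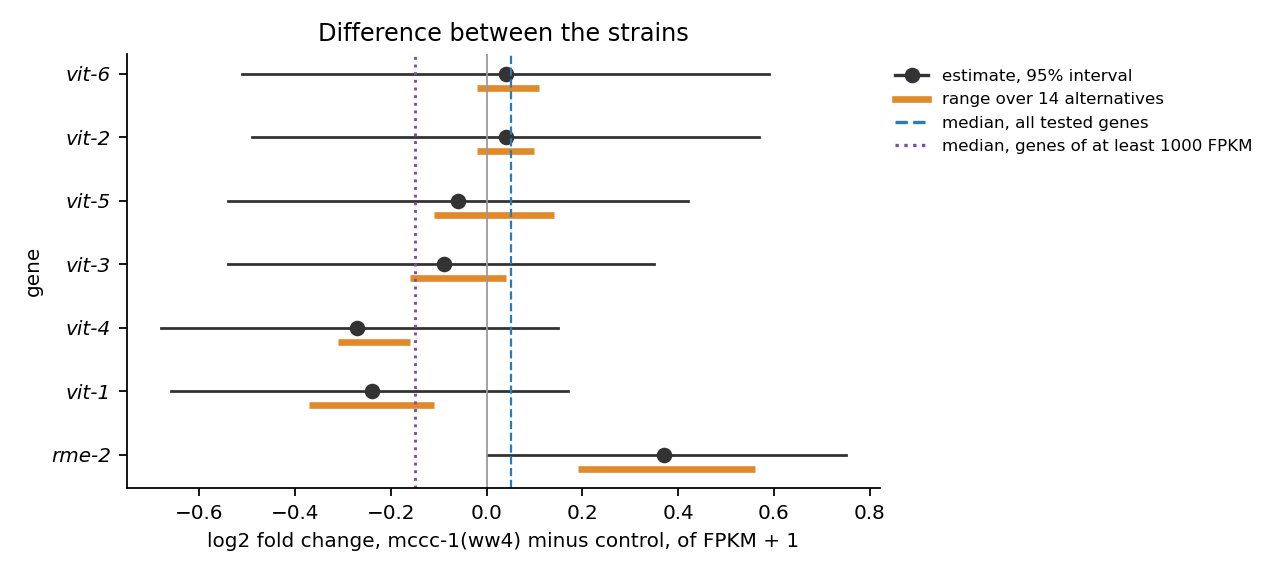
Log2 fold change of FPKM + 1 (mccc-1(ww4) minus control) of each yolk gene, with its 95% interval from limma (black) and the range of the estimate over 14 alternatives (orange). The dashed line marks the median of all tested genes (0.05) and the dotted line that of genes averaging at least 1000 FPKM (-0.15). The intervals of all 7 genes include 0, that of rme-2 barely.

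rme-2 had the largest ratio of the 7. Its means were 177 ± 12.0 FPKM in the mutant and 137 ± 24.9 FPKM in the control (SD, n = 2 each), 1.29-fold higher in the mutant, with a log2 fold change of 0.37 (SE 0.16, unadjusted p = 0.0513, limma adjusted p = 0.235) and an interval of 0.998 to 1.68 on the fold scale. It kept a positive value in all 14 alternatives, from 0.19 without control replicate 2 to 0.56 without control replicate 1, and passed in none. Set against the yolk messages, the vitellogenin sum was 111.5 ± 12.4 times rme-2 in the mutant and 150.0 ± 26.9 times in the control (SD, n = 2 each), with no overlap between libraries.

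Of 15 genes of oocytes and of the eggshell 1 rose, none fell and 14 did not pass, where 1.06% of all tested genes passed as higher. All 15 log2 fold changes were above 0, with a median of 0.50 against 0.05 for all tested genes, and 13 had an unadjusted p under 0.05, against 8.16% of all tested genes in that direction. The gene that rose was spn-4, which encodes an RNA-binding protein loaded into the egg, at 571 and 526 FPKM in the mutant libraries, against 376.5 and 312 FPKM in the control libraries (log2 fold change 0.67 with SE 0.15, limma adjusted p = 0.0403). Leaving out control replicate 2, mutant replicate 1 or mutant replicate 2 ended that call (limma adjusted p = 0.263, 0.142 and 0.0767), as did median-of-ratios scaling (0.0715) and a minimum of 0.1 FPKM or none (0.106 and 0.14). perm-2 and perm-4, eggshell genes and the highest of the list, differed by 0.04 and 0.08 on the log2 scale, with overlapping libraries. The list summed to 7064 and 7395 FPKM in the mutant libraries and to 6042 and 5132 FPKM in the control libraries. rme-2 equalled 2.63% and 2.28% of that sum in the mutant libraries and 2.57% and 2.34% in the control libraries. Relative to this sum its libraries overlapped, with means of 2.45% ± 0.245 and 2.45% ± 0.163 (SD, n = 2 each). A large part of the sum is perm-2 and perm-4, which averaged 1281 and 1124 FPKM in the mutant and 1236 and 1055 FPKM in the control. The share without these genes was not computed. The log2 fold change of rme-2 was 0.37, below the list's median of 0.50. In RNA of whole animals, fewer cells of a type and less RNA per cell cannot be told apart, and the part of oocyte content in the level of rme-2 was not tested.

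Among other LDL receptor relatives, egg-1 and egg-2 encode oocyte surface proteins with LDL receptor repeats that are needed for fertilization. egg-1 was at 280.2 and 272 FPKM in the mutant libraries and at 222 and 182 FPKM in the control libraries (log2 fold change 0.46, limma adjusted p = 0.113). egg-2 was at 112 and 88.1 FPKM in the mutant libraries and at 76.2 and 56.7 FPKM in the control libraries (0.59, limma adjusted p = 0.125). lrp-1, a large receptor of the epidermis, was at 5.30 and 4.34 FPKM in the mutant libraries and at 5.51 and 7.15 FPKM in the control libraries (-0.33, limma adjusted p = 0.513). None of the 4 genes of this list passed limma, although 2 had an unadjusted p under 0.05. The log2 fold change of egg-2 was 0.8 without control replicate 1 and 0.38 without control replicate 2.

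Downstream of the receptor, the genes of yolk endocytosis differed little. None of 15 passed limma and none had an unadjusted p under 0.05. Their log2 fold changes ran from -0.17 to 0.26, with a median of 0.14 against 0.05 for all tested genes, and 14 of the 15 were above 0. rab-11.1, a GTPase gene of recycling endosomes, was at 494 and 604 FPKM in the mutant libraries and at 496 and 499 FPKM in the control libraries. rab-5, of early endosomes, was at 197 and 190 FPKM in the mutant libraries and at 179 and 170.3 FPKM in the control libraries. rme-1, which encodes a recycling factor found through its yolk uptake defect, was at 181 and 153 FPKM in the mutant libraries and at 162 and 148 FPKM in the control libraries. Of these named genes only rab-5 had no overlap between the groups. Over the whole list 6 of 15 genes had no overlap, or 40.0%, against 52.1% of all tested genes.

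Upstream, the genes of lipoprotein assembly and secretion also did not pass, with 0 of 17 called by limma and 1 at an unadjusted p under 0.05. The median log2 fold change was 0.11, and 14 of the 17 were above 0. The chaperone gene crt-1 (calreticulin) was at 856 and 1091 FPKM in the mutant libraries and at 984 and 795 FPKM in the control libraries. hsp-3, a BiP chaperone gene of the endoplasmic reticulum, was at 386 and 486 FPKM in the mutant libraries and at 424 and 349.6 FPKM in the control libraries. pdi-2, of the disulfide isomerases, was at 356 and 484 FPKM in the mutant libraries and at 432 and 320 FPKM in the control libraries. All 3 overlapped between strains, with mutant replicate 2 and control replicate 1 the higher libraries, as for vit-2 and vit-6. The gene at an unadjusted p under 0.05, named after its value was seen, was dsc-4, which encodes the microsomal triglyceride transfer protein that loads lipid onto lipoproteins. It was at 27.7 and 27.4 FPKM in the mutant libraries and at 21.9 and 16.1 FPKM in the control libraries (log2 fold change 0.53 with SE 0.19, limma adjusted p = 0.159).

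The regulators known to control the vitellogenin genes stood far below their targets, at 0.27 to 116 FPKM. Of 14, mab-3, which represses yolk genes in males, was at 0.27 to 1.41 FPKM and was not tested, and 0 of the other 13 passed limma (1 at an unadjusted p under 0.05, median log2 fold change 0.18). skn-1, a stress and lipid regulator gene, was at 116 and 96.9 FPKM in the mutant libraries and at 86.2 and 85.7 FPKM in the control libraries (0.30, limma adjusted p = 0.265). pqm-1, whose product acts on yolk genes downstream of the kinase SGK-1, was at 67.3 and 31.9 FPKM in the mutant libraries and at 43.8 and 40.5 FPKM in the control libraries. daf-16, the transcription factor gene of insulin signalling, was at 46.9 and 44.4 FPKM in the mutant libraries and at 46.6 and 47.8 FPKM in the control libraries. pqm-1 and daf-16 overlapped between the strains and skn-1 did not.

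elt-2, ceh-60 and unc-62 are named after their values were seen, as regulators known to act on vitellogenin promoters in the intestine. elt-2, the GATA factor gene of the intestine, was at 9.55 and 11.13 FPKM in the mutant libraries and at 6.38 and 3.94 FPKM in the control libraries (log2 fold change 0.91 with SE 0.27, limma adjusted p = 0.0967). The log2 fold change of elt-2 was 1.20 without control replicate 1 and 0.62 without control replicate 2. It was 1.01 without mutant replicate 1 and 0.81 without mutant replicate 2. ceh-60, a homeobox gene, was at 13.3 and 14.6 FPKM in the mutant libraries and at 11.6 and 8.16 FPKM in the control libraries (0.47, limma adjusted p = 0.287). unc-62, which encodes a partner of CEH-60, was at 22.1 and 22.1 FPKM in the mutant libraries and at 19.3 and 17.1 FPKM in the control libraries (0.27, limma adjusted p = 0.398). All 3 had no overlap between strains, with control replicate 2 lowest. Of the 13 tested regulators 6 had no overlap, or 46.2%, against 52.1% of all tested genes. Log2 fold changes were above 0 for 9 of the 13. The negative values were those of sgk-1, dbl-1, daf-16 and elt-7 (-0.22, -0.24, -0.05 and -0.03). elt-7 overlapped between the strains, and both elt-2 and elt-7 are also on the intestine list. sgk-1, dbl-1 and elt-7 are named after their values were seen.

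The intestine, the tissue that makes yolk, was represented by 12 marker genes, of which 11 were tested. None passed limma, 2 had an unadjusted p under 0.05, and the median log2 fold change was 0.10. Those 2 went opposite ways: elt-2, the regulator already counted above, was at 0.91 and mtl-2 at -0.87. The list summed to 2212 and 2413 FPKM in the mutant libraries and to 2391 and 1674 FPKM in the control libraries. Control replicate 2 held the lowest value for 7 of the 12 genes. Most of its lower sum lay in 2 genes: act-5, the actin gene of intestinal microvilli, was at 412 and 415 FPKM in the mutant libraries and at 423 and 229 FPKM in the control, and asp-1, a protease gene, was at 1325 and 1587 FPKM in the mutant libraries and at 1494 and 1038 FPKM in the control libraries. vha-6, a proton pump gene, differed less, at 172 and 166 FPKM in the mutant libraries and at 176 and 156 FPKM in the control libraries. Other genes were not lowest there: nhx-2, a transporter gene, was at 24.14 and 14.87 FPKM in the mutant libraries, against 19.21 and 19.93 FPKM in the control libraries. mtl-2, a metallothionein gene, was at 37.8 and 21.3 FPKM in the mutant libraries, against 55.1 and 50.7 FPKM in the control libraries. nhx-2 and mtl-2 are named after their values were seen. Without asp-1 and act-5 the list summed to 475.4 and 412 FPKM in the mutant libraries and to 473 and 407 FPKM in the control libraries. The vitellogenin sum did not drop in control replicate 2, and was 8.61 and 8.40 times the intestinal sum in the mutant libraries and 8.50 and 12.1 times in the control libraries. Without control replicate 2, vit-6 had a log2 fold change of -0.02 and the other yolk genes kept their signs.

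**Figure D5:**
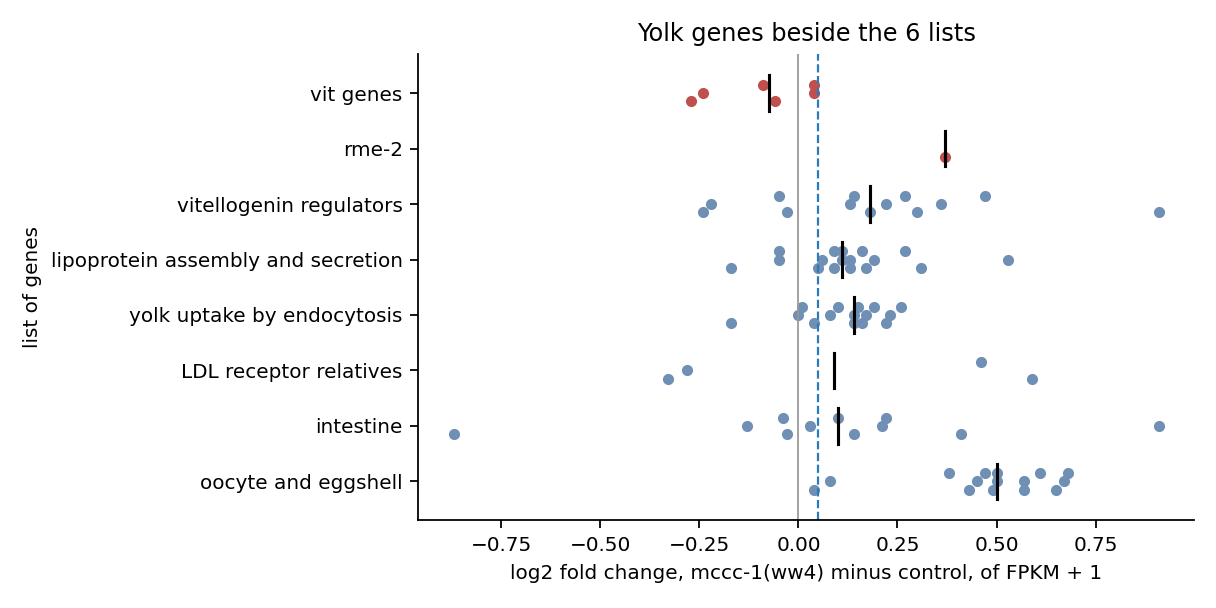
Log2 fold change of FPKM + 1 (mccc-1(ww4) minus control) of the vitellogenin genes and rme-2 (red) and of the tested genes of 4 pathway lists and 2 tissue lists (blue), with each list's median as a black bar and the median of all tested genes as a dashed line. The oocyte and eggshell genes, of which 1 of 15 passed, have a median of 0.50, rme-2 is at 0.37, and the vitellogenin genes lie between -0.27 and 0.04.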

How the data were processed

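Whole-animal RNA of 2 strains was analysed, with 2 libraries each. The authors deposited FPKM per gene, with 1 file per library and 20535 genes, per the file headers. Bowtie2 and RSEM were used, per the submitters' processing notes; versions, build, annotation and strandedness are not stated in the sources at hand, and replicates were not pooled. Samples were grouped by their titles. Of the gene IDs, 18776 matched the name table and 20337 the WBcel235 annotation.

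The test used limma 3.58.1 (R 4.3.3) on log2(FPKM + 1) (group only, mean-variance trend, Benjamini-Hochberg over the 13091 genes that reached 1 FPKM in 2 or more libraries, threshold 0.05). A fold change on that scale understates that of low genes; ratios are of mean FPKM. The plan allowed for counts, but the files hold FPKM, for which it named this test. Shares, sums and ratios got no test.

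The members, the filter and the 4 pathway and 7 marker lists were chosen with earlier results of these data known. Named beside the members were, per list, genes that passed and otherwise those of highest level up to 3, and the 5 genes of at least 100 FPKM closest in profile. Exceptions are marked. Alternatives covered pseudocount, filter, scaling, variance model, block and each library. No sequence is shown.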

Additional observations from a re-analysis of the deposited data

How the results depend on the processing

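None of the 7 yolk genes passed in any of 14 alternatives, and 93 of 98 recomputed log2 fold changes kept their sign. The 5 that turned were vit-2 (-0.00), vit-3 (0.04) and vit-5 (0.14) after quantile normalization, vit-2 without mutant replicate 2 (-0.02) and vit-6 without control replicate 2 (-0.02). Quantile normalization also moved the ratio of the vitellogenin sum to 1.02 and that of vit-3 to vit-5 to 1.02; alternatives for the sum of vit-3 to vit-5 were chosen after seeing the data. Causes were not tested. Without 1 library vit-2 ranged from -0.02 to 0.10, vit-6 from -0.02 to 0.11 and the vitellogenin ratio from 0.939 to 0.999. Calls over all genes numbered 1095, 4 with no minimum or one of 0.1 FPKM (then 0 of the marker genes, against 33), 726 after quantile normalization, and 393 to 1324 without 1 library. With the replicate number as a block they were 1803, and in the pathway lists egg-2 and elt-2 passed (2, against 0; limma adjusted p = 0.0302 and 0.0303). The log2 fold changes of egg-2 and elt-2 were 0.8 and 1.2 without control replicate 1, and 0.38 and 0.62 without control replicate 2. The deviations of same-numbered libraries correlated only weakly (r = 0.176 over genes), and with 2 pairs and no label this does not show pairing. Depth is known only from the spacing of low values. By that estimate counting error was at most 0.373% for the vitellogenin genes and 1.58% for rme-2, below the spread between replicates. Other limits on precision, such as the number of libraries and the division of shared fragments, were not separated.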

Other observations

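Genes of at least 100 FPKM were ordered by how close their profile over the 4 libraries came to those of the yolk genes (Euclidean distance of centred log2 values over 1158 genes, a description with 4 points). Closest to the vitellogenin sum were vha-2, pyp-1, mlc-4, cyc-1 and eif-3.I, at distances of 0.0158 to 0.0352, where the median gene was at 0.29. vha-2, a proton pump subunit gene, was at 808 and 858 FPKM in the mutant libraries and at 850.3 and 853 FPKM in the control libraries. Closest to rme-2 were B0513.4, R05H5.3, gfat-2, rnr-1 and oma-1, at 0.0823 to 0.115, where the median gene was at 0.51. oma-1, an oocyte maturation gene also on the oocyte list, was at 189 and 165 FPKM in the mutant libraries and at 146 and 125 FPKM in the control libraries. rme-2 stood at 0.979 and 1.02 times oma-1 in the mutant libraries and at 1.06 and 0.958 times in the control libraries. As oma-1 is named here for its close profile, a steady ratio follows from that choice.

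The 5 vitellogenin genes on the X chromosome made up 18.0% and 18.0% of all FPKM from X-linked genes in the mutant libraries and 17.9% and 18.5% in the control libraries. X-linked genes as a whole held 10.1% and 10.5% of all FPKM in the mutant libraries and 10.3% and 10.4% in the control libraries. Both shares overlapped between the strains.

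The replicates of a strain differed in the yolk genes in their own ways. In the mutant, all 6 vitellogenin genes were higher in replicate 2 than in replicate 1, by 1.02-fold for vit-5 to 1.19-fold for vit-1, and rme-2 was 0.909 times as high. In the control, replicate 2 was at 0.913 and 0.960 times replicate 1 for vit-6 and vit-2 and at 1.06 to 1.08 times for vit-1, vit-3, vit-4 and vit-5, and at 0.773 times for rme-2.

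Marker lists of other tissues had medians of -0.16 for 5 body muscle genes, -0.01 for 6 neuron genes and -0.11 for 4 tested moulting genes, and none of these genes passed limma (0, 0 and 1 at an unadjusted p under 0.05). Of 32 tested sperm genes 31 passed as lower, against 7.30% of all tested genes, with a median log2 fold change of -1.68. With a minimum of 0.1 FPKM or none, 0 of the marker genes passed.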
